A study of Drosophila melanogaster with 32 samples.

Results

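Female Drosophila melanogaster from populations that had evolved under monogamy were compared after mating with promiscuous-line males and with males from their own population. The comparison used 16 of the study's 32 arrays, which are all the arrays of monogamous-line females. Of these, 8 carry the label M.P and 8 the label M.M, where the first letter gives the regime of the female and the second that of the male. All flies descended from LHM, a laboratory base population. Over 46 generations, flies of 4 populations had a single mating in each generation (monogamy), while the usual mating protocol of the stock was continued in 4 others (promiscuity). Females of monogamous populations 1 to 4 received a mate from their own population (M.M) or from the same-numbered promiscuous population (M.P). Whole females were frozen 6 h later, and their RNA was hybridised to single-colour arrays. In whole flies, fewer cells of a type and less RNA per cell cannot be told apart. Each cross had 1 array in each of 2 batches, so the replicate array and the batch cannot be told apart. In these females a promiscuous-line mate was also always a mate from another population, so male regime and shared population of origin cannot be told apart either. For the promiscuous-line females set beside them below, the promiscuous-line mate came from their own population.

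Mating changes the state of a female fly within hours. Seminal fluid proteins of the male, the sex peptide among them, raise egg production, lower receptivity to further mating and are known to alter the expression of immune, digestive and metabolic genes. The female stores sperm in the spermathecae, whose secretory cells make serine proteases and other secreted proteins. In experimental evolution, monogamy removes competition between the ejaculates of rival males, and the crosses ask how the history of the male bears on the female's expression after mating.

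All values are log2 levels of a probe set, and a response is the M.P level minus the M.M level within a female population, averaged over its pair of arrays in batch 1 and its pair in batch 2. The 4 population responses are the replicates, and n counts populations. Each SE is that of the limma fit, whose spread is pooled over both female regimes and moderated across probe sets. It can be smaller or larger than the 4 responses alone would give. The 16 arrays were alike in overall distribution, with medians of 5.41 to 5.46 and pairwise correlations of 0.992 to 0.998, and no 2 arrays held identical values. The M.M array of population 3 in batch 1 had the highest lower quartile, 3.93, and the M.M array of population 1 in batch 2 had the lowest correlation with the mean of the other arrays, 0.996.

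No single probe set passed the test. Limma called 0 of 18769 probe sets at an adjusted p of 0.05 (0%), the smallest adjusted p was 0.0943, and 1588 (8.46%) lay under an unadjusted p of 0.05, of which 966 (5.15%) were higher and 622 (3.31%) lower with promiscuous-line mates. Responses were small. The median over all probe sets was -0.0020, 9138 (48.7%) were above 0, 34 probe sets differed by more than 0.5 and 3 by more than 1. The 4 populations shared little of their response: correlations between populations across the 18769 probe sets ran from -0.050 to 0.12, a description across genes measured on the same arrays. Within a population the 2 batches shared as little, with correlations of -0.014, -0.0045, 0.11 and 0.017 in populations 1 to 4. A probe set was higher in all 4 populations in 1772 cases (9.44%) and lower in all 4 in 1402 (7.47%). It was higher in all 8 batch-matched pairs in 129 cases (0.687%) and lower in all 8 in 88 (0.469%).

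The gene with the smallest p was bt (chromosome 4), which encodes projectin, a giant protein of the sarcomere. On M.M arrays bt lay between 10.4 and 11.12 with a median of 10.75, and on M.P arrays between 10.87 and 11.28 with a median of 11.06. The groups overlapped, but within pairs the M.P array was the higher one in 8 of 8, by 0.084 to 0.48. The mean response was 0.28 with an SE of 0.04 (n = 4, limma adjusted p = 0.0943), and the population responses lay between 0.23 and 0.35. In promiscuous-line females bt responded to the same change of male regime by 0.019, and the difference between the female regimes had a limma adjusted p of 0.506.

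A second giant sarcomere gene, sls, which encodes the titin-like protein sallimus, was measured by 3 probe sets that were all higher. The first of them lay between 6.29 and 6.69 on M.M arrays (median 6.50) and between 6.47 and 6.93 on M.P arrays (median 6.83), higher in 8 of 8 pairs with a mean response of 0.28. The second lay between 8.04 and 8.89 on M.M arrays (median 8.40) and between 8.54 and 9.03 on M.P arrays (median 8.77), again higher in 8 of 8 pairs, by 0.36. For both, the lower M.M arrays stood below every M.P array. The third was higher in 7 of 8 pairs with a mean response of 0.22, and the limma adjusted p-values of sls were 0.194, 0.255 and 0.526 in this order. Obsc, which encodes obscurin, a further giant sarcomere protein, had a response of 0.23 in its brighter probe set, higher in 8 of 8 pairs. Its second probe set was dim at a mean M.M level of 3.56 and pointed the other way, at -0.16.

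Among the other genes higher with promiscuous-line mates, bib, a neurogenic gene of the aquaporin family, had a mean response of 0.39 with an SE of 0.06 (n = 4, limma adjusted p = 0.0943). Its level was low, with M.M arrays at 3.37 to 4.50 (median 4.02) and M.P arrays at 3.65 to 4.84 (median 4.31). The groups overlapped widely, and the differences within pairs ran from -0.21 to 0.88. The gene hlk had 2 probe sets that were both higher, by 0.28 (limma adjusted p = 0.0943, 7 of 8 pairs) and by 0.23 (8 of 8 pairs). In the first probe set of hlk the M.M arrays lay at 7.47 to 8.39 (median 7.98) and the M.P arrays at 7.98 to 8.54 (median 8.20), so that the lowest M.P array stood near the M.M median. The zinc finger transcription factor gene Cf2 was at 6.14 to 6.74 (median 6.30) on M.M arrays and at 6.54 to 7.04 (median 6.67) on M.P arrays. Its response was 0.33 with an SE of 0.06 (n = 4, limma adjusted p = 0.194), and 8 of 8 pairs were higher. The same held for a probe set of CG43897 (0.16) and for scaf, a gene for a serine protease homologue (0.28), each higher in 8 of 8 pairs. A further probe set of CG43897 was at 0.0047. In rib, a gene for a BTB transcription factor, the mean response of 0.41 came almost wholly from batch 2, at 0.77 against 0.040 in batch 1. Its level was near the floor of the array, with a mean M.M level of 3.26.

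**Figure D1:**
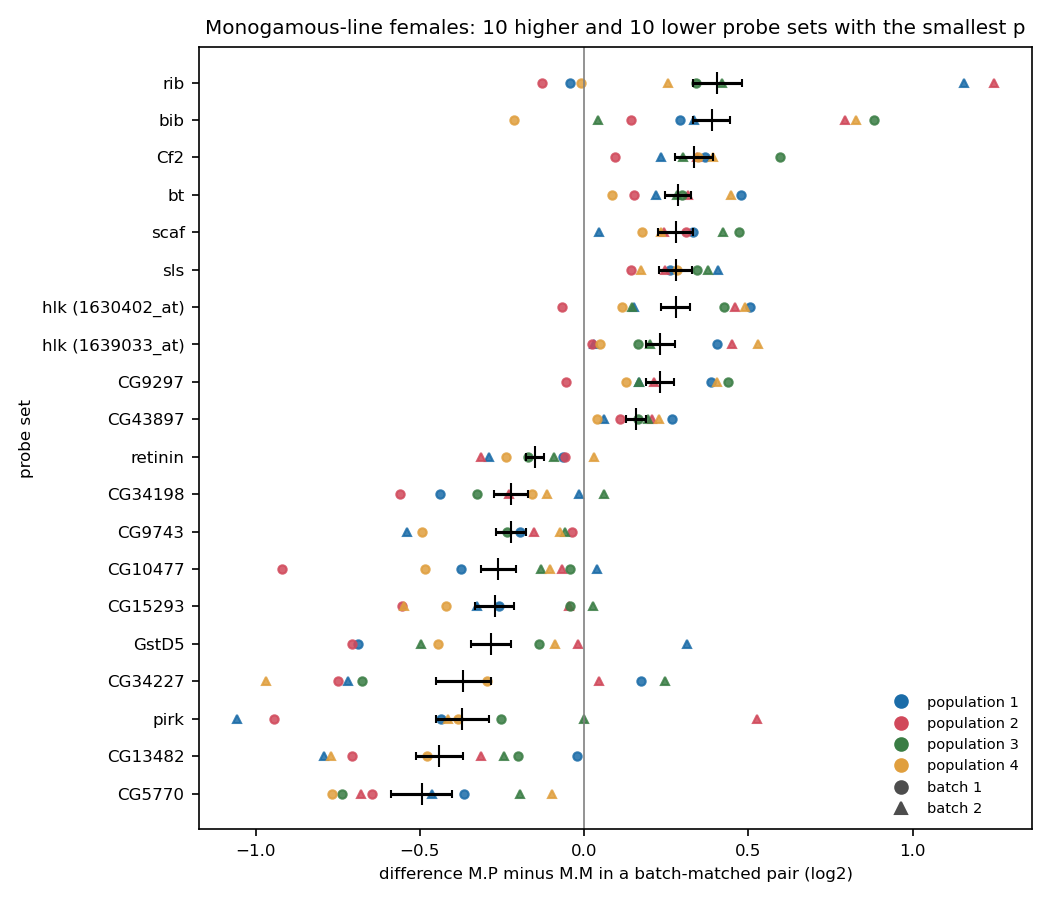
Differences in log2 level between the M.P and the M.M array of each batch-matched pair for the 10 higher and 10 lower probe sets with the smallest p. Points are pairs, with colour for the female population and shape for the batch. The black bar is the mean response with its limma SE (n = 4). The points of bt, Cf2, CG13482 and CG5770 lie on 1 side of 0, while those of rib, CG34227 and pirk lie on both.

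The genes lower with promiscuous-line mates were led by CG13482 and CG5770, whose functions are not named here. CG13482 lay between 9.12 and 10.2 on M.M arrays (median 9.58) and between 8.81 and 10.18 on M.P arrays (median 9.10). The ranges overlapped over most of their length, yet the M.P array was the lower in 8 of 8 pairs, and the mean response was -0.44 with an SE of 0.07 (n = 4, limma adjusted p = 0.108). Without population 4 the mean response of CG13482 was -0.38. CG5770 was at 7.36 to 8.94 (median 8.10) on M.M arrays and at 6.91 to 8.40 (median 7.73) on M.P arrays. It too was lower in 8 of 8 pairs, with population responses between -0.66 and -0.41 and a mean of -0.49 with an SE of 0.09 (n = 4, limma adjusted p = 0.194). In promiscuous-line females CG5770 was higher with promiscuous-line mates in 4 of 4 populations, by 0.27, and the difference between the female regimes, -0.76, had a limma adjusted p of 0.405. CG9743 was the third of the leading genes that was lower in 8 of 8 pairs, at -0.22. The corneal lens gene retinin responded by -0.15, lower in 7 of 8 pairs and in 4 of 4 populations, and promiscuous-line females gave -0.10.

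Genes of muscle leaned to higher levels as a group. Of 43 probe sets of 26 sarcomere and muscle genes, 33 were higher (76.7%). Of the brightest quintile of all probe sets, in which their median M.M level of 9.60 lay, 60.9% were higher. Under an unadjusted p of 0.05, 18 of the 43 were higher and 1 was lower, beside 5.15% higher and 3.31% lower over all probe sets. The list median was 0.074 against -0.0020 over all probe sets, and the medians in populations 1 to 4 were 0.085, 0.084, 0.11 and 0.093. None of the 43 passed the adjusted test. The populations were alike only after their batches were averaged: the list median was 0.18, -0.017, 0.12 and -0.059 in the batch 1 pairs of populations 1 to 4, and 0.018, 0.18, 0.072 and 0.22 in their batch 2 pairs. Abundant muscle markers lay on both sides of 0. Act88F, the actin of flight muscle, was at -0.10, flightin, fln, at -0.035, and up, which encodes troponin T, at 0.14. In promiscuous-line females 15 of the 43 were higher with promiscuous-line mates, with a median of -0.028. The difference between female regimes was under an unadjusted p of 0.05 for 15 of the 43 probe sets, all with the larger response in monogamous-line females, where 7.89% of all probe sets were under that p and 0.00533% passed the adjusted test.

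Synaptic and ion channel genes leaned the same way. Of 53 probe sets of 29 genes, 38 were higher, 18 under an unadjusted p of 0.05 and 1 lower under that p, with a median of 0.087, beside 5.15% higher and 3.31% lower among all probe sets. Promiscuous-line females had 32 of the 53 higher and a median of 0.016. Snap25, which encodes a SNARE protein of vesicle release, lay between 8.41 and 9.04 on M.M arrays (median 8.77) and between 8.67 and 9.31 on M.P arrays (median 8.92). Both groups shared most of that range, 7 of 8 pairs were higher, and the mean response was 0.20 with an SE of 0.04 (n = 4, limma adjusted p = 0.194). Gad1, which makes the transmitter GABA, was at 0.14, higher in 7 of 8 pairs. The Shaker potassium channel gene Sh had 7 probe sets with responses from -0.12 to 0.25, on both sides of 0. General markers of neurons were near 0: elav was at -0.0013, nSyb at -0.010, and the 4 probe sets of the active zone gene brp at -0.025 to 0.086.

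**Figure D2:**
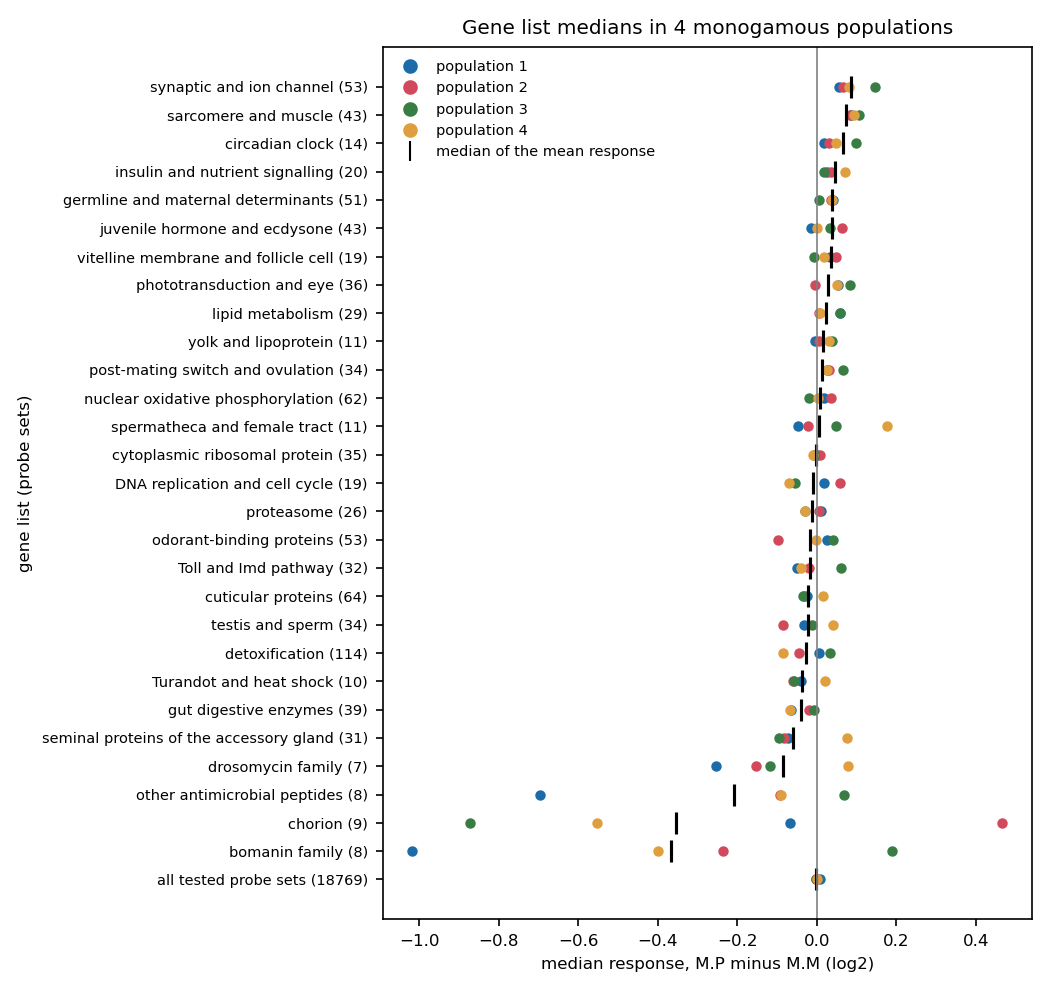
Median response (log2, M.P minus M.M) of each gene list, with 1 point for each monogamous population and a black bar for the median of the mean responses, and the number of probe sets in brackets. Muscle and synaptic lists lie above 0 in all 4 populations, and so do the germline, clock, insulin, lipid and post-mating lists. The bomanin, other antimicrobial peptide and chorion lists spread from population to population.

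Both lists hold many long genes, and gene length itself moved with the response. Genes were split into 5 quintiles by their genomic length in the RefSeq annotation. In the longest quintile, from 10443 to 396036 bp, 374 of 2709 probe sets were higher and 40 lower under an unadjusted p of 0.05. In the shortest quintile, from 147 to 1184 bp, 56 of 2709 were higher and 141 lower. Over all 13544 probe sets of known gene length, 805 were higher and 415 lower under that p. Among probe sets with a level of at least 7, 774 of 947 in the longest quintile were higher (median 0.053), against 3235 of 5753 in the other quintiles (median 0.0063). Under an unadjusted p of 0.05 the former held 235 higher and 2 lower probe sets, and the latter 287 higher and 136 lower. Long genes exceeded the others in 5 of 8 pairs, and their medians in the batch 1 and batch 2 pairs were 0.051 and 0.035 in population 1, -0.010 and 0.11 in population 2, 0.12 and 0.015 in population 3, and 0.042 and 0.042 in population 4. In promiscuous-line females the median of the same long genes was 0.030.

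Of the muscle probe sets 26 of 43 fell in the longest quintile, and of the synaptic probe sets 48 of 53. Within the longest quintile 22 of 26 muscle probe sets were higher with a median of 0.078, and in the other quintiles 11 of 17 with a median of 0.074. The shares higher were 84.6% and 64.7%, and the mean responses 0.10 and 0.050. The synaptic list had 5 probe sets outside the longest quintile, too few to set beside it. The part of gene length in the values of either list was not tested further.

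**Figure D3:**
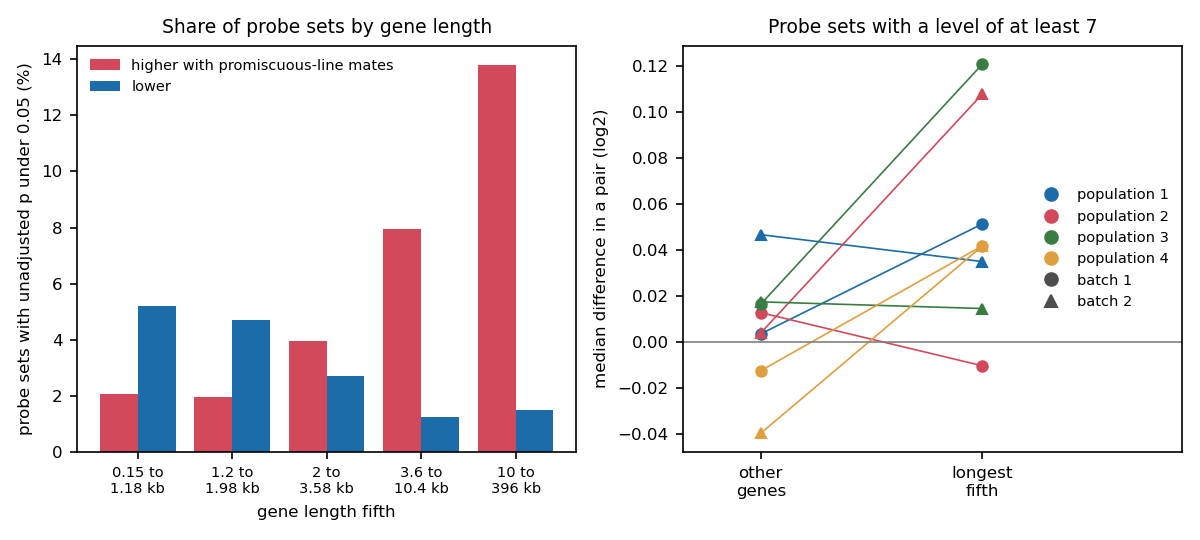
Left, the percentage of probe sets in each quintile of gene length that were higher or lower at an unadjusted p under 0.05. Right, the median log2 difference of each batch-matched pair for probe sets with a level of at least 7, in the longest quintile of genes and in all others. The share of higher probe sets is largest in the longest quintile, and 5 of 8 pairs slope upwards.

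Level moved with the response as well. In the dimmest quintile of probe sets 38.5% were higher, and in the brightest 60.9%. The lower quartile of the M.M array of population 3 in batch 1 was 3.93 and that of its M.P partner 3.85. Without that pair the median of the long genes was 0.039. Genes of the small, largely heterochromatic chromosome 4, to which bt belongs, were higher in 66 of 82 probe sets (80.5%), against 49.3% to 53.7% on the other chromosome arms. On chromosome 4, 19 were higher and 0 lower under an unadjusted p of 0.05, beside 5.15% higher and 3.31% lower of all probe sets. The median was 0.064, and the medians of populations 1 to 4 were 0.068, 0.041, 0.073 and 0.041. Outside the longest quintile 27 of 31 probe sets of chromosome 4 were higher, with a median of 0.058. In promiscuous-line females the chromosome 4 median was 0.046. For the difference between female regimes 3 probe sets of chromosome 4 were larger and 6 smaller in monogamous-line females under an unadjusted p of 0.05. Over all probe sets 7.89% were under that p.

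Antimicrobial peptide genes, the effectors of the Toll and Imd pathways, were lower on average, and the size depended on the population. Of 23 probe sets in 3 lists, 19 were lower, 6 under an unadjusted p of 0.05, with a median of -0.20, where 3.31% of all probe sets were lower under that p, and none passed the adjusted test. Promiscuous-line females mated to the same male populations had 5 of the 23 higher and a median of -0.17. All 8 probe sets of the bomanin family, small peptides secreted on Toll activation, were lower, and their median was -0.37, where promiscuous-line females had 0 of 8 higher and a median of -0.28. The medians in monogamous-line females were -1.02, -0.24, 0.19 and -0.40 in populations 1 to 4. In population 1 both batches were lower, at -0.47 and -1.46, while population 4 had -0.96 in batch 1 and 0.16 in batch 2. The bomanin median was -0.15 without population 1, -0.57 without population 3 and -0.23 without the batch 2 pair of population 1, and -0.50 in batch 1 against -0.12 in batch 2. For the other antimicrobial peptides, outside the bomanin and drosomycin families, the median of -0.21 was -0.053 without population 1 and -0.076 without its batch 2 pair alone.

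DptB, which encodes a diptericin and is a readout of Imd signalling, had the widest range. In population 1 its 2 M.M arrays were 10.88 and 12.82 and its M.P arrays 8.08 and 10.39, a difference of -2.80 in batch 1 and -2.43 in batch 2. In population 4 the difference was -3.38 in batch 1 and 0.38 in batch 2, and in population 3 it was 1.08 and 0.34. The M.M arrays of population 1 and 1 array of population 4 thus stood far above the remaining M.M arrays, whose median over all 8 was 7.24. The mean response of DptB was -0.93 with a limma SE of 0.38 (n = 4, limma adjusted p = 0.542), and its population responses ran from -2.62 to 0.71. The mean was -0.37 without population 1 and -0.97 without the batch 2 pair of population 1 alone. Mtk, which encodes metchnikowin, followed the same arrays, at -3.26 and -1.86 in population 1, -3.14 and 0.62 in population 4 and 1.67 and 0.97 in population 3.

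Other immune genes were also lower on average. The drosomycin-like gene Drsl4 was at 9.08 to 10.45 (median 10.03) on M.M arrays and at 8.58 to 10.44 (median 9.54) on M.P arrays. Both groups spanned nearly the same range, although 7 of 8 pairs were lower, and the mean response was -0.40 with an SE of 0.09 (n = 4, limma adjusted p = 0.323). Drosomycin itself, Drs, responded by -0.085. The negative regulator of the Imd pathway, pirk, was at 7.03 to 8.52 (median 7.70) on M.M arrays and at 6.84 to 7.70 (median 7.40) on M.P arrays, with a response of -0.37 (limma adjusted p = 0.255), and of -0.25 without population 1. The highest M.P array of pirk was level with the M.M median, but the pairs of population 2 disagreed, at -0.94 in batch 1 and 0.53 in batch 2. The Toll and Imd pathway list, which holds receptors, kinases and regulators, pirk among them, was near the background. Its median was -0.018, with 14 of 32 probe sets higher (43.8%, beside 48.7% of all probe sets). Under an unadjusted p of 0.05, 1 was higher and 2 were lower, beside 5.15% and 3.31% of all probe sets. The peptidoglycan recognition gene PGRP-SB1, a member of that list, was at -0.58, and at -0.32 without population 1.

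The largest responses of all belonged to serine proteases of the spermatheca. Send2, an endopeptidase gene of the sperm storage organs, lay between 4.14 and 9.64 on M.M arrays (median 5.47) and between 4.61 and 9.65 on M.P arrays (median 8.49). The range of each group was thus almost as wide as that of both together. In population 2, Send2 was 4.41 and 4.50 on the M.M arrays and 8.26 and 9.65 on the M.P arrays, and CG17234, a second protease gene, was 5.32 and 4.46 against 8.44 and 10.15. Each of these 4 M.P values exceeded its M.M partner by at least 3.12. The mean response of Send2 was 1.62 with a limma SE of 0.56 (n = 4, limma adjusted p = 0.473), and 0.66 without population 2. That of CG17234 was 1.44 with a limma SE of 0.60 (n = 4, limma adjusted p = 0.552), and 0.45 without population 2. Population responses ran from -0.50 to 4.5 for Send2 and from -0.79 to 4.4 for CG17234, wider than these SEs convey. The related gene CG17239 responded by 0.42, and by 0.21 without population 2. In population 1 all 3 were lower in batch 2, at -0.91, -1.57 and -1.02.

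Send1, the other endopeptidase gene of that name, did not follow them and was at -0.15. Of the 11 probe sets in the spermatheca and female tract list 7 were higher, and the list median was 0.0048. Levels of Send2 also differed widely among M.M arrays: population 4 had 8.65 and 6.44, and population 3 had 4.32 and 4.14. A high level was therefore seen with either kind of mate. In promiscuous-line females Send2 responded by 0.14 and CG17234 by -0.065, and the difference between female regimes had limma adjusted p-values of 0.675 and 0.688.

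**Figure D4:**
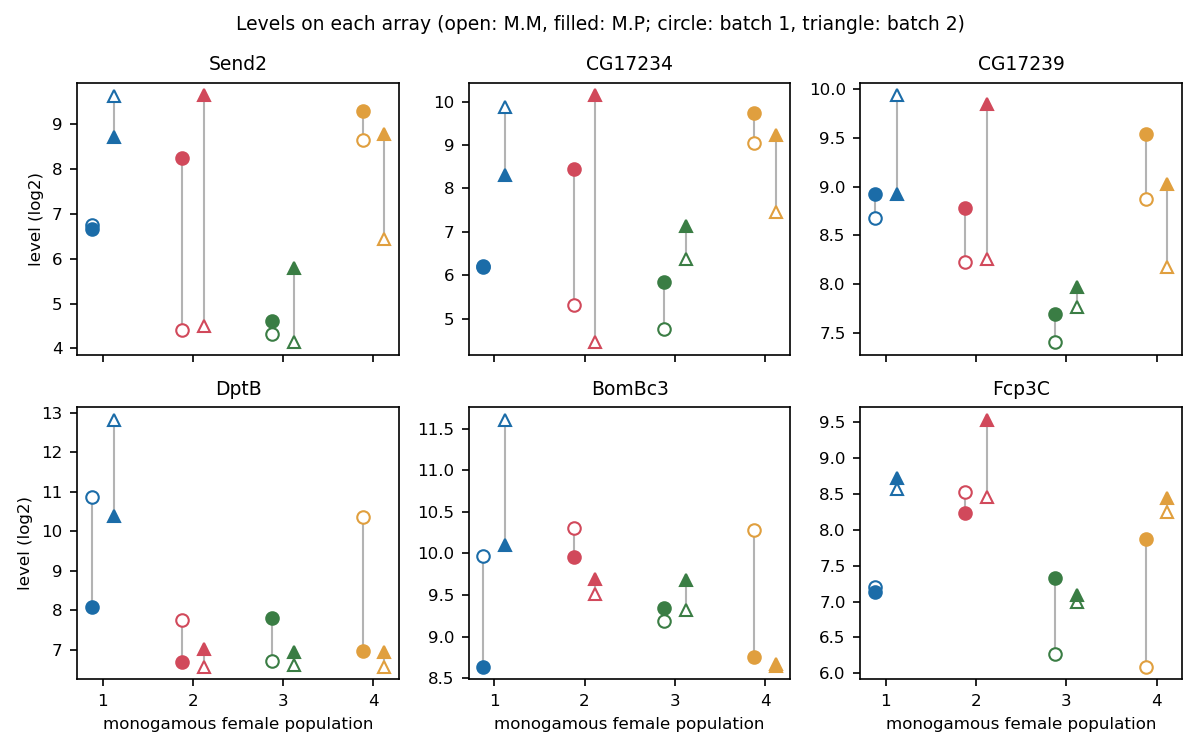
Log2 level of 6 genes on each array, with open symbols for M.M, filled symbols for M.P, circles for batch 1 and triangles for batch 2, and a line joining the arrays of a pair. Send2 and CG17234 separate by mate in population 2 in both batches, and DptB and BomBc3 do so in the opposite direction in population 1.

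Probe sets that differed by more than 1 in both batch pairs of a population were counted, and this selection was made after the values were seen. In population 1, 0 were higher and 13 lower. The named genes among them were the immune genes DptB, Mtk, PGRP-SB1, BomBc2 and BomBc3, and also CG32302 and CG13247. The remaining probe sets had no single gene name. In population 2, 6 were higher, among them Send2, CG17234, CG15571, CG4066 and CG12716, and 1, CG34040, was lower. In population 3, 0 were higher and 6 lower: Cp7Fc at -3.98 and -2.76, Obp19c at -2.83 and -1.99, CG14834, CG11381, CG4009 and a probe set without a named gene. In population 4, 1 was lower, Cp18 at -1.64 and -1.22. Among promiscuous-line females, those of population 1, mated to the same male populations as monogamous population 1, had 1 probe set higher and 9 lower by this count. BomBc2 was past 1 in both, at -1.21 and -2.14 in monogamous and -1.77 and -1.74 in promiscuous population 1, and Mtk was at -1.81 and -1.18 in promiscuous population 4. Send2, higher in monogamous population 2, was at -1.27 and -1.17 in promiscuous population 1. In monogamous-line females, pairs of the 2 batches that passed 1 in opposite directions numbered 5, 2, 4 and 5 in the 4 populations.

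Eggshell genes varied widely between arrays. Chorion genes are switched on in follicle cells in the last stages of oogenesis. The 9 chorion probe sets had a median of -0.36, with medians of -0.066, 0.47, -0.87 and -0.55 in populations 1 to 4 and 0 under an unadjusted p of 0.05. The late chorion gene Cp18 differed by 3.25 in the batch 1 pair of population 1 and by 5.72 in the batch 2 pair of population 3, and by -0.06 in the batch 1 pair of population 3. Cp36 and Cp38, which are expressed earlier, responded by -0.36 each, and by -0.14 and -0.19 without population 3. The list of vitelline membrane genes and other follicle cell genes had a median of 0.035, with 11 of 19 probe sets higher. In this list Fcp3C, a follicle cell gene, was at 6.09 to 8.58 (median 7.73) on M.M arrays and at 7.10 to 9.54 (median 8.06) on M.P arrays. The overlap was broad. Its response of 0.50 came from 3 pairs that were higher by 1.06 to 1.79, and the remaining 5 lay between -0.28 and 0.20. Yolk protein genes Yp1, Yp2 and Yp3, near the top of the array's range, responded by 0.012 to 0.017.

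Germline and maternal genes were higher in 38 of 51 probe sets (74.5%), beside 60.9% of the brightest quintile, in which their median M.M level of 9.65 lay. Under an unadjusted p of 0.05, 9 of them were higher (5.15% of all probe sets) and 0 lower, and the list median was 0.039. Promiscuous-line females had 44 of the 51 higher and a median of 0.057. By batch the median was -0.010 (batch 1) and 0.068 (batch 2). Sxl, the master gene of female sex determination, was at 4.71 to 5.76 (median 5.29) on M.M arrays and at 5.24 to 5.92 (median 5.39) on M.P arrays in 1 of its probe sets. The medians were close, but 8 of 8 pairs were higher, with a mean response of 0.28. A pair of further Sxl probe sets was at 0.11 and 0.055. Genes of DNA replication and the cell cycle had 8 of 19 probe sets higher and a median of -0.010. Their median changed sign between batches, at -0.064 in batch 1 and 0.041 in batch 2. In population 1 it was -0.20 in batch 1 and 0.20 in batch 2. Promiscuous-line females had 19 of 19 higher and a median of 0.095. The difference between female regimes was under an unadjusted p of 0.05 for 8 of these 19 probe sets, all with the smaller response in monogamous-line females. Over all probe sets 710 of 18769 were under that p in this direction, and 7.89% in either direction. At an adjusted p of 0.05 the difference was called for 0 of the 19. Cdk2, a kinase of the entry into S phase, was at -0.10, lower in 7 of 8 pairs.

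Metabolic genes gave small responses. In the lipid metabolism list 21 of 29 probe sets were higher (72.4%), beside 60.9% of the brightest quintile, in which their median M.M level of 9.96 lay. Under an unadjusted p of 0.05, 5 of them were higher (5.15% of all probe sets) and 0 lower, and the list median was 0.023. The acyl-CoA reductase gene wat was at 8.63 to 9.01 (median 8.87) on M.M arrays and at 8.72 to 9.12 (median 9.02) on M.P arrays, higher in 8 of 8 pairs by a mean of 0.13. ACC, which encodes acetyl-CoA carboxylase, the first enzyme of fatty acid synthesis, responded by 0.11 and was higher in 7 of 8 pairs. The lipid carrier gene apolpp was at 13.77 to 13.99 (median 13.83) on M.M arrays and at 13.82 to 14 (median 13.89) on M.P arrays, higher in 8 of 8 pairs by a mean of 0.058. These were small but even differences between strongly overlapping groups. The activin-like ligand gene daw responded by 0.19. Nuclear genes of oxidative phosphorylation had a median of 0.0084, with 41 of 62 probe sets higher beside 60.9% of the brightest quintile, where promiscuous-line females had 4 of 62 higher and a median of -0.048. For 7 of the 62 the difference between female regimes was under an unadjusted p of 0.05, all with the larger response in monogamous-line females. Over all probe sets 771 of 18769 were under that p in this direction, and 7.89% in either direction. No probe set of the list passed the adjusted test for this difference. Cytoplasmic ribosomal protein genes stood at -0.0023.

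Several enzymes and stress genes were lower in all 4 populations, with a few pairs that carried much of the size. Gnmt, which encodes glycine N-methyltransferase, was at 5.29 to 8.67 (median 6.77) on M.M arrays and at 4.80 to 7.73 (median 6.36) on M.P arrays. The groups overlapped, and the response was -0.51 with an SE of 0.16 (n = 4, limma adjusted p = 0.455). The chitinase gene Cht4 responded by -0.59 and the cold-induced gene Fst by -0.48. Both were lowest in the batch 2 pair of population 1, at -2.16 and -2.64, and without that pair the means were -0.39 and -0.17. Without population 1 they were -0.33 and -0.18. CG1077 was at -0.52, with pairs from -2.88 to 1.34, and at -0.30 without population 1.

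Detoxification genes had a median of -0.028, with 37 of 114 probe sets higher, 4 higher and 6 lower under an unadjusted p of 0.05, beside 5.15% and 3.31% of all probe sets. Among them the glutathione transferase genes GstD5, GstE5 and GstD8 responded by -0.28, -0.19 and -0.20. GstD5 was at 4.61 to 6.37 (median 5.29) on M.M arrays and at 4.38 to 6.28 (median 5.11) on M.P arrays. Despite this overlap it was lower in 7 of 8 pairs and in 4 of 4 populations. Of the gut digestive enzymes 16 of 39 probe sets were higher, 0 higher and 5 lower under an unadjusted p of 0.05, with a median of -0.040, beside 3.31% lower among all probe sets. Promiscuous-line females had 8 of the 39 higher and a median of -0.090. The trypsin gene kappaTry was at -0.15 and the lysozyme gene LysX at -0.33.

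Genes of the nervous and endocrine systems that respond to mating or to the time of day had small median responses. In the post-mating switch and ovulation list 18 of 34 probe sets were higher and the median was 0.013. Under an unadjusted p of 0.05, 7 of the 34 were higher and 0 lower, beside 5.15% and 3.31% of all probe sets. None passed the adjusted test. Nep2, which encodes a neprilysin peptidase, was at 7.36 to 8.03 (median 7.67) on M.M arrays and at 7.55 to 8.06 (median 7.78) on M.P arrays, higher in 7 of 8 pairs by a mean of 0.13. The groups overlapped almost wholly. The nuclear receptor gene Hr3, of the ecdysone pathway, was higher in 8 of 8 pairs by 0.21, in a list of 43 juvenile hormone and ecdysone probe sets of which 31 were higher with a median of 0.038. The clock gene per was at 0.16, and the clock list had a median of 0.066 with 10 of 14 probe sets higher. In the insulin and nutrient signalling list 13 of 20 were higher with a median of 0.047, while the insulin-like peptide gene Ilp5 was at -0.13. Phototransduction and eye genes had a median of 0.028, with 28 of 36 higher, with 0.089 in batch 1 and -0.031 in batch 2. Odorant-binding proteins, cuticular proteins, proteasome subunits and Turandot and heat shock genes had medians between -0.039 and -0.011.

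Markers of male tissues were near the floor of the array. Those of the male accessory gland, Acp26Aa, Acp36DE, SP and Acp62F, lay between 2.60 and 4.85 on all 16 arrays, and the testis and sperm markers Mst87F, Mst84Dc, dj, betaTub85D and janB between 2.53 and 4.62, in the lowest 3 quintiles of all probe sets. In the seminal protein list the median was -0.060 with 6 of 31 probe sets higher, and in the testis list -0.023 with 12 of 34 higher. These values sit beside the 38.5% of the dimmest quintile of probe sets that were higher.

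A last question was whether monogamous-line females answered the change of mate differently from promiscuous-line females. The 2 sets of females were mated to the same 8 male populations, so their responses share the male populations. The promiscuous-line mate came from another population for monogamous-line females and from their own for promiscuous-line females. The difference is therefore also that between mates from another and from the own population. A difference between female regimes and an effect of shared origin cannot be told apart here. Limma called 1 of 18769 probe sets for this difference (0.00533%), and 1481 (7.89%) lay under an unadjusted p of 0.05. The called gene was CG4830, with a mean response of 0.17 with an SE of 0.04 in monogamous-line and -0.31 in promiscuous-line females, a difference of 0.48 (n = 4 and 4, limma adjusted p = 0.0179). On M.M arrays CG4830 was at 7.59 to 9.15 (median 8.34) and on M.P arrays at 7.83 to 9.41 (median 8.49), with a broad overlap. In monogamous-line females its response was 0.74 in batch 1 and -0.40 in batch 2: the batch 1 pairs of populations 1 to 4 stood at 0.82, 0.84, 0.86 and 0.45, and the batch 2 pairs at -0.76, -0.49, -0.38 and 0.01. The small SE therefore holds for the average of the batches and not within them. Leaving out any of 6 of the 8 populations, or either batch pair described at the start, ended the call.

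The next smallest p for the difference was that of GstD5, which responded by -0.28 in monogamous-line and by 0.32 in promiscuous-line females, a difference of -0.60 (limma adjusted p = 0.0831). It was lower in 4 of 4 monogamous and higher in 4 of 4 promiscuous populations. CG5770, described above, showed the same opposition of signs. Adgf-A, which encodes an adenosine deaminase, responded by 0.12 and -0.15, and the transporter gene MFS1 by 0.093 and -0.42, each with a limma adjusted p of 0.407. Of the genes with the smallest p within monogamous-line females, promiscuous-line females had bt at 0.019, bib at 0.030 and Cf2 at 0.066, and no difference between the regimes passed the adjusted test for these 3 genes.

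**Figure D5:**
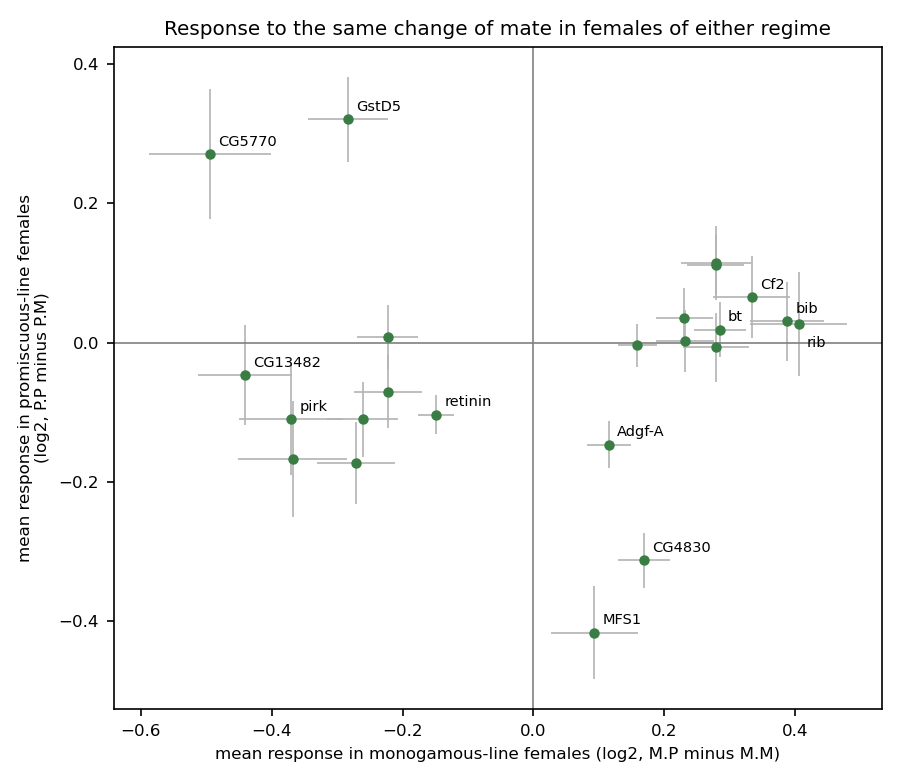
Mean response (log2) in monogamous-line females on the horizontal axis and in promiscuous-line females on the vertical axis, with limma SEs (n = 4 each). Shown are the 20 probe sets with the smallest p in monogamous-line females and the 5 with the smallest p for the difference. Both selections hold CG5770 and GstD5. CG4830, GstD5 and CG5770 lie in the quadrants of opposite sign.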

How the data were processed

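Deposited log2 values were used. The submitters' processing notes name RMA and affy, without versions, for the step from array scans to the deposited values. The array type, the Affymetrix Drosophila Genome 2.0, is known from the array names in the labels. RMA places all arrays on 1 distribution, so a shift shared by most genes is not visible. With arrays, the number of populations and of arrays limits the precision. The 183 control probe sets were left out of 18952 and 18769 were tested. Of these 13647 had 1 gene in the platform annotation, 402 had several and 4720 none, and 13544 were matched to a RefSeq gene table (Release 6 plus ISO1 MT), used for names, chromosomes and lengths. The build of the array design is not given in the sources used here.

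The 8 population responses (4 per female regime) were fitted with limma 3.58.1 in R 4.3.3 (lmFit, eBayes with an intensity trend, two-sided, Benjamini-Hochberg over all tested probe sets, threshold 0.05), with female regime as a term, so both regimes share 1 estimate of the spread. Pairs come from the same female population. The deviations of its M.M and M.P arrays from their group means correlated at 0.66, 0.58, 0.58 and 0.58 in populations 1 to 4. An exact sign-flip test of 4 responses cannot go below p = 0.125 and was not run.

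Named genes were the 10 higher and 10 lower with the smallest p, 5 and 5 with the largest response at a level of at least 6 and 1 direction in all populations, the first 3 of each list (all of short lists), and the 5 with the smallest p for the difference between female regimes. The comparison, the lists and this rule were chosen with earlier results of these data known. Groups by gene length, chromosome 4 and repeated single-population differences were chosen after seeing the values.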

Additional observations from a re-analysis of the deposited data

Results flagged for a closer look

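Dixon's criterion, which chance meets in about 1 of 20 sets, was applied to 86 sets of 4 population values. These were 56 probe sets of genes named in the text, and the medians of the lists and of all probe sets. In 5 of the 86, 1 population was far from the other 3. Not every gene of the text was checked: Mtk, Cp18 and CG1077, for example, were not. CG9297 responded by 0.078 in population 2, against 0.27 to 0.30 in the others. The infection-induced gene edin responded by -1.28 in population 1, and its mean was -0.23 without it. Drsl2 responded by -0.88 in population 1, and its mean was -0.16 without it. The median of the germline list was 0.0059 in population 3, against 0.036 to 0.041 in the others. The median of the seminal protein list was 0.076 in population 4, against -0.095 to -0.074 in the others. CG4830 stood out through the test of the difference between female regimes, 0.48, with the batch values given above.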

How the results depend on the processing

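Alternatives were set against the count of 0 called probe sets. It became 3 (2 higher, 1 lower: bt, sls and CG5770) when the monogamous responses were fitted alone, 5 (all higher) with robust eBayes, and 0 to 10 when populations were left out in turn, with 10 without promiscuous population 2 and 1 without promiscuous population 4. Those 2 populations enter only through the shared spread. The smallest adjusted p lay between 0.00261 and 0.978 over all alternatives. Without the replicate block, that is, without pairing by female population, 0 probe sets were called, 729 (326 higher, 403 lower) lay under an unadjusted p of 0.05 instead of 1588, and 0 differed between female regimes. Leaving out populations gave 1195 to 1727 under that p.

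The single call for the difference between female regimes became 0 with arrays as samples, in batch 2 alone, without the intensity trend and without either pair named at the start, and 2 in batch 1 alone, with centring on the array median and with robust eBayes. It was 0 to 4 with a population left out. The response of CG4830 reversed to -0.40 in batch 2 alone. Without the dimmest 40% of probe sets 131 had 1 direction in all 8 pairs (105 higher, 26 lower) instead of 217. The muscle median was 0.046 in batch 1, 0.11 in batch 2 and 0.095 without the batch 2 pair of population 1. That of long genes was 0.042 after a second quantile normalization and 0.039 without the batch 1 pair of population 3, and that of chromosome 4 was 0.046 to 0.068 with a population left out, lowest without monogamous population 3. The causes were not tested. The pairs left out were chosen after seeing the data. Dim probe sets near the array's floor limit what bib, rib and the seminal and testis lists can show.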
